A study of Caenorhabditis elegans with 24 samples.

Results

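Genes that activate fatty acids and oxidise them were followed in the nematode Caenorhabditis elegans at 15 °C and 25 °C. The 61 genes are those whose single gene symbol in the array's platform table is an acdh, acox, acs, ech, hacd or cpt symbol with a number, acdh-11 left out, together with daf-22, dhs-28 and maoc-1. They are 61 of the 25434 genes tested, each read by 1 probe set. By textbook location 22 were grouped as mitochondrial, 13 as peroxisomal and 26 were left unassigned. The mitochondrial group holds 11 acdh and 6 cpt genes, acs-2, ech-1.1, ech-1.2, ech-6 and hacd-1. The peroxisomal group holds 7 acox genes, daf-22, dhs-28, maoc-1, ech-8, ech-9 and acs-7. The placing of acs-7 in the peroxisome is uncertain, and all peroxisomal counts, medians and gaps given below include it. The unassigned genes are 21 acs and 5 ech genes.

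A fatty acid is first joined to coenzyme A by an acyl-CoA synthetase (acs genes). Mitochondria take long chains in through the carnitine palmitoyltransferases (cpt genes) and shorten them in cycles of dehydrogenation (acdh), hydration (ech), a further dehydrogenation (hacd) and cleavage by a thiolase. Peroxisomes run a parallel cycle that starts with acyl-CoA oxidases (acox) and goes on through MAOC-1, DHS-28 and DAF-22, and in this worm that cycle shortens the side chains of ascarosides, the pheromones that signal crowding. Much of the worm's fat is stored and burned in the intestine.

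The study measured RNA of whole worms on 24 Affymetrix gene arrays, in 8 groups of 3 preparations. Wild-type worms and daf-16(mgDF47) mutants, which carry a deletion in the FOXO transcription factor gene of the insulin-like pathway, were compared at 15 °C and 25 °C. Adults spent their 3 days after late L4, the end of larval life, at 15 °C or 25 °C, and a preparation held about 120 of them. Larvae spent the time from embryo to late L4 at either temperature, with about 300 in a preparation. Adults were matched by days, so that temperature and how far adult life had advanced cannot be told apart in them. All groups grew on standard agar plates, and the genotype and temperature are the labelled differences between them within a stage.

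The daf-16 probe set lay at 10.36 to 10.63 on the log2 scale in wild-type adults and at 8.02 to 8.83 in mutant adults. In larvae it lay at 8.50 to 8.78 in the wild type and at 5.99 to 6.57 in the mutant. The groups of the 2 genotypes did not overlap in either stage, and each of the 4 differences was called (-2.48 to -2.01 log2 units). The mutant level stayed above the array medians, and the position of the probes against the deletion was not given in the sources used here. Array medians ran from 3.55 to 3.70 in adults and from 2.96 to 3.08 in larvae. The stages look to have been normalized separately, so levels of adults and larvae are not set against each other. Array medians exceeded the mean level of 10 members in adults and of 4 in larvae (16.4% and 6.56% of members, against 49.7% and 49.5% of all genes). Beside the other larvae at 25 °C, preparation 3 stood apart in both genotypes, and the larval calls that its removal ended or added are given with the larval results. In whole worms, fewer cells of a type and less RNA per cell cannot be told apart.

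Between 15 °C and 25 °C, 30 of the 61 genes changed in wild-type adults, 17 upward and 13 downward. A change here is an adjusted p under 0.05 in limma, a linear model fitted to all 25434 genes. Those are 27.9% and 21.3% of the members, where 15.1% of all genes were called higher and 15% lower (30.1% in all). The median member differed by 0.02 log2 units and the median gene by -0.10. In mutant adults 6 members rose and 13 fell, 9.84% and 21.3% of them against 13.4% and 11.2% of all genes (24.6% in all), with a median member at -0.08 and a median gene at -0.10. Between the genotypes 18 calls were shared, 60% of the wild-type calls and 94.7% of the mutant calls. Of these, 6 genes rose in both and 11 fell in both, while acox-1.4 went opposite ways. The overlap of calls over all genes was not counted, so this sharing is not shown to be particular to the members.

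**Figure D1:**
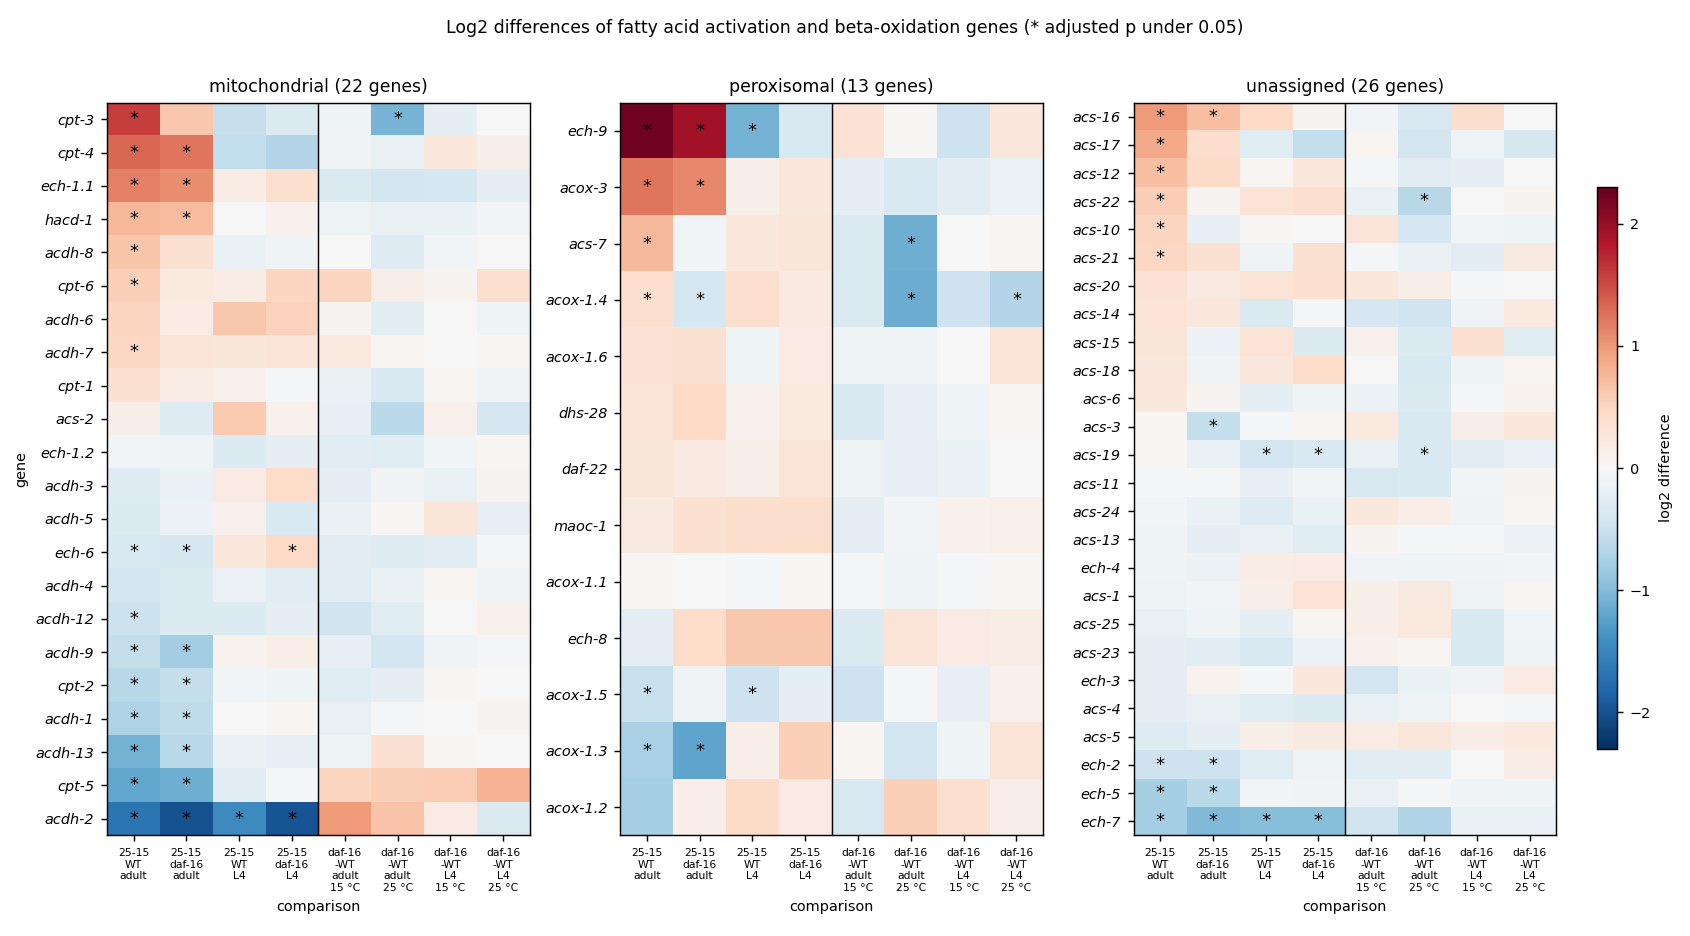
Log2 differences (colour) of the 61 genes, sorted within each compartment by the temperature difference in wild-type adults. Columns left of the line give 25 °C minus 15 °C and columns right of it daf-16 mutant minus wild type, and a star marks an adjusted p under 0.05. Most stars lie in the 2 adult temperature columns, and ech-9 at 2.23 and acdh-2 at -2.0 are the extreme values.

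Mitochondrial members moved both ways in adults. In the wild type 7 of 22 rose and 8 fell, with a median of -0.18, and in the mutant 3 rose and 7 fell, with a median of -0.15. The falls were led by acyl-CoA dehydrogenases, of which 2 of 11 rose and 5 fell in the wild type and none rose and 4 fell in the mutant. The gene acdh-2 gave 7.71, 6.64 and 7.53 in wild-type adults at 15 °C and 5.45, 5.36 and 6.05 at 25 °C. In the mutant it gave 8.13, 8.42 and 8.25 at 15 °C and 5.0, 7.04 and 6.76 at 25 °C. Every warm array lay below every cool array of its genotype, though the lowest mutant array at 25 °C was far from the other two. The fall was 1.67 log2 units (-1.67, SE 0.35, adjusted p = 0.000728, limma) in the wild type and 2.0 (-2.0, SE 0.35, adjusted p = 0.000167) in the mutant. For acdh-13 the wild-type values were 7.67, 7.59 and 7.56 at 15 °C and 6.25, 6.69 and 6.63 at 25 °C. The 2 temperatures stood apart, with a difference of -1.09 (SE 0.15, adjusted p = 5.91e-06), and the mutant fell by 0.61 (adjusted p = 0.00362).

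The acyl-CoA dehydrogenase ACDH-1 and the hydratase ECH-6 act in the propionate shunt, the side route that breaks propionyl-CoA down without vitamin B12. Levels of acdh-1 were 10.54, 10.59 and 10.60 in wild-type adults at 15 °C and 9.99, 9.49 and 10.13 at 25 °C. In the mutant they were 10.42, 10.39 and 10.39 at 15 °C and 9.81, 9.81 and 9.86 at 25 °C. All 6 warm arrays were below all 6 cool ones, and the falls of 0.71 (-0.71, SE 0.14, adjusted p = 0.000315) and 0.58 (-0.58, adjusted p = 0.00304) were both called. Falls of ech-6 were smaller, -0.34 in the wild type (adjusted p = 0.0354) and -0.39 in the mutant (adjusted p = 0.0227). After loess normalization neither was called (-0.23, adjusted p = 0.17, and -0.33, adjusted p = 0.0522). The next enzymes of the shunt are not members: the hydrolase hach-1 fell by 0.73 and 0.82 and the dehydrogenase hphd-1 by 1.16 and 1.02 in wild-type and mutant adults, whereas alh-8, the last step, differed by 0.07 and 0.12 and was not called. Of the B12-dependent route, the propionyl-CoA carboxylase subunits pcca-1 and pccb-1 rose by 0.60 and 0.33 in the wild type. In the mutant pcca-1 rose by 0.43 and pccb-1 differed by 0.12 without a call. All 10 measured genes of the propionate list gave 2 rises and 2 falls in wild-type adults and 1 rise and 2 falls in mutant adults, and setting its 2 routes side by side was done after their values were seen.

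Carnitine palmitoyltransferases split within the family, with 3 of 6 higher and 2 lower at 25 °C in wild-type adults. The gene cpt-2, which encodes the transferase of the inner mitochondrial membrane, gave 9.12, 9.24 and 9.31 at 15 °C and 8.42, 8.77 and 8.59 at 25 °C. In the mutant it gave 8.95, 8.94 and 8.92 at 15 °C and 8.38, 8.36 and 8.42 at 25 °C. The temperatures did not overlap in either genotype, and cpt-2 fell by 0.63 (-0.63, SE 0.10, adjusted p = 3.7e-05) and by 0.55 (-0.55, adjusted p = 0.000228). The other gene of the family that fell was cpt-5, by 1.19 in the wild type (adjusted p = 0.00958) and by 1.12 in the mutant (adjusted p = 0.0177). Upward, cpt-3 moved from 3.44, 3.6 and 3.84 at 15 °C to 4.96, 6.14 and 4.54 at 25 °C in the wild type, a rise of 1.59 (SE 0.29, adjusted p = 0.000162). Its warm arrays were all above its cool arrays and varied more among themselves, with preparation 2 the highest. The cool values of cpt-3 lay around the adult array medians (3.55 to 3.70), so the size of its rise is uncertain. In the mutant cpt-3 differed by 0.62 (95% interval 0.03 to 1.22) and was not called. The rise of cpt-4 was 1.32 in the wild type (SE 0.35, adjusted p = 0.00582) and 1.22 in the mutant (adjusted p = 0.0127). Wild-type cpt-4 arrays overlapped, with 4.07, 5.96 and 4.58 at 15 °C and 5.80, 7.04 and 5.73 at 25 °C. Of the remaining members of this family, cpt-6 rose by 0.56 in the wild type (adjusted p = 0.0183). The outer-membrane transferase gene cpt-1 differed by 0.35 (95% interval 0.07 to 0.62, adjusted p = 0.051) and was not called. With the preparation number as a block, which paired the arrays in this comparison, the adjusted p of cpt-1 was 0.0495.

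Of the genes of later steps, ech-1.1 and hacd-1 rose in both genotypes. The gene ech-1.1, whose product corresponds to the alpha subunit of the mammalian trifunctional protein, gave 4.41, 4.10 and 4.07 at 15 °C and 5.28, 5.85 and 4.95 at 25 °C in wild-type adults. The difference was 1.17 (SE 0.25, adjusted p = 0.000862), and 1.07 in the mutant (adjusted p = 0.00256). The hydroxyacyl-CoA dehydrogenase gene hacd-1 gave 7.61, 7.68 and 8.24 at 15 °C and 8.62, 8.17 and 9.06 at 25 °C in the wild type. Preparation 2 at 25 °C lay below the highest cool array, so the groups overlapped, and the rise was 0.77 (SE 0.18, adjusted p = 0.00197). The mutant rise of hacd-1 was 0.72 (adjusted p = 0.00473), with 7.68 to 7.76 at 15 °C and 8.28 to 8.62 at 25 °C. The paralogue ech-1.2 differed by -0.06 in wild-type adults (95% interval -0.28 to 0.16) and was not called in any comparison. Of the remaining mitochondrial members in wild-type adults, acdh-7 and acdh-8 rose by 0.48 and 0.64, and acdh-9 and acdh-12, the very-long-chain dehydrogenase, fell by 0.54 and 0.50. Of these 4, acdh-9 was called in the mutant, where it fell by 0.81. The adult mean of acdh-8, 3.08, lay below the adult array medians. Its wild-type groups overlapped, with 2.93, 2.43 and 3.14 at 15 °C and 2.86, 4.15 and 3.41 at 25 °C. With the adult arrays alone the acdh-8 call was lost (adjusted p = 0.0908).

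Peroxisomal members in wild-type adults gave 4 rises and 2 falls among 13, with a median of 0.27, and in mutant adults 2 rises and 2 falls, with a median of 0.20. The gene ech-9, of the enoyl-CoA hydratase family, had the largest change of any member. Its wild-type values were 3.98, 4.50 and 4.29 at 15 °C and 6.27, 6.52 and 6.67 at 25 °C. Its mutant values were 4.13, 4.88 and 4.78 at 15 °C and 6.44, 6.62 and 6.50 at 25 °C. All 6 warm arrays lay above 6 and all 6 cool arrays below 5, a rise of 2.23 in the wild type (SE 0.24, 4.69-fold, adjusted p = 2.67e-07) and of 1.92 in the mutant (SE 0.24, adjusted p = 2.87e-06). Its neighbour on the chromosome, ech-8, differed by -0.21 in the wild type (95% interval -0.66 to 0.24) and was not called in either genotype.

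Acyl-CoA oxidases did not move together. Values of acox-3 were 6.72, 6.35 and 6.26 at 15 °C and 7.81, 7.69 and 7.50 at 25 °C in the wild type, with no overlap. It rose by 1.22 (SE 0.18, adjusted p = 1.22e-05), and by 1.10 in the mutant (adjusted p = 6.21e-05). In contrast acox-1.3 gave 6.27, 5.94 and 6.22 at 15 °C and 5.14, 5.10 and 5.97 at 25 °C in the wild type. Preparation 3 at 25 °C reached into the cool range, and the fall was 0.74 (-0.74, SE 0.19, adjusted p = 0.00413). In the mutant acox-1.3 fell from 6.38, 6.08 and 6.12 to 4.75, 5.12 and 5.04, a difference of -1.22 with no overlap (adjusted p = 3.98e-05). In wild-type adults acox-1.5 fell by 0.52 (adjusted p = 0.00522). In the mutant it differed by -0.08 (95% interval -0.36 to 0.20) and was not called.

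The genes acox-1.1, acox-1.2, acox-1.3 and acox-1.4 lie next to each other in this order and are close paralogues, so that probes of 1 may take up RNA of another and their values are uncertain to that extent. Within this row acox-1.1 differed by 0.04 in wild-type adults (95% interval -0.32 to 0.40), acox-1.2 by -0.76 and acox-1.3 by -0.74, and acox-1.4 by 0.39. Of these, acox-1.1 and acox-1.2 were not called, the latter at an adjusted p of 0.064, or 0.0235 with preparation as a block. Its values ran from 5.24 to 6.39 at 15 °C and from 4.35 to 5.51 at 25 °C. Wild-type acox-1.4 gave 8.53, 8.19 and 8.65 at 15 °C and 8.67, 8.75 and 9.11 at 25 °C, whereas the mutant gave 8.12, 8.13 and 8.09 at 15 °C and 7.63, 7.69 and 7.80 at 25 °C. It was higher when warm in the wild type (0.39, SE 0.13, adjusted p = 0.0287) and lower when warm in the mutant (-0.41, adjusted p = 0.0258), with no overlap in either. The wild-type call was lost with each array centred on its median (0.30, adjusted p = 0.0767) and the mutant call after loess normalization (-0.34, adjusted p = 0.0636).

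The enzymes that follow the oxidases were not called in any of the 12 comparisons. In wild-type adults the hydratase gene maoc-1 differed by 0.21 (95% interval -0.37 to 0.78), the dehydrogenase gene dhs-28 by 0.30 (-0.08 to 0.68) and the thiolase gene daf-22 by 0.27 (-0.09 to 0.63). Warm wild-type arrays of dhs-28 were 8.55, 9.18 and 9.18 and those of maoc-1 6.30, 7.69 and 7.54. Preparation 1 was the lowest of the 3 for both genes and fell within or below the cool range. Without it, maoc-1 differed by 0.65 (adjusted p = 0.0455) and dhs-28 by 0.51 (adjusted p = 0.04). In mutant adults dhs-28 was called with preparation as a block (0.45, adjusted p = 0.0157). The ascaroside synthetase gene acs-7, in contrast, rose from 5.12, 4.86 and 4.88 to 5.41, 5.90 and 5.77 in the wild type, without overlap (0.74, SE 0.16, adjusted p = 0.00116). In the mutant acs-7 gave 4.73, 4.44 and 4.69 at 15 °C and 4.19, 4.86 and 4.64 at 25 °C and was not called.

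**Figure D2:**
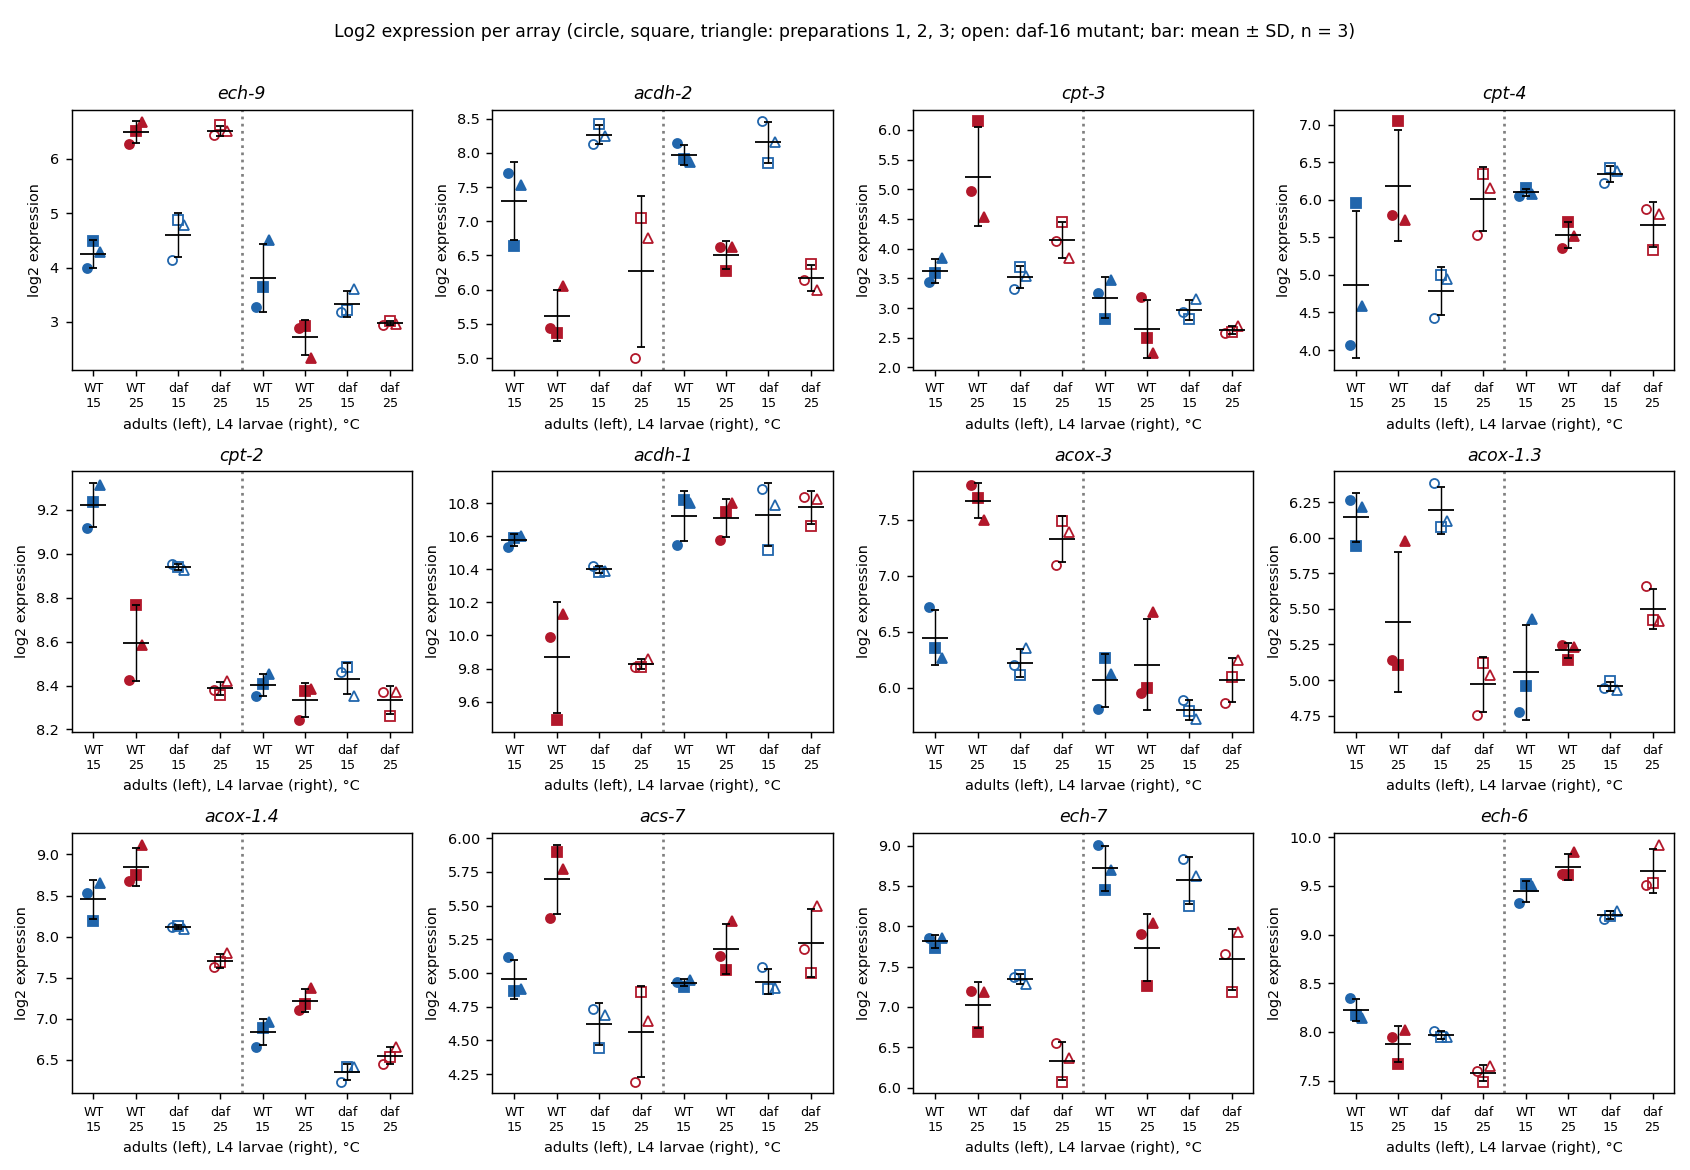
Log2 expression of 12 genes on each array, adults left and larvae right of the dotted line in each panel, blue at 15 °C and red at 25 °C, filled for wild type and open for the daf-16 mutant; bars are the mean and SD of 3 preparations. Adult ech-9 and acox-3 are higher at 25 °C in both genotypes, and acox-1.4 separates by genotype in both stages; levels of the 2 stages are not comparable.

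Of the 23 acyl-CoA synthetases, 7 rose and 0 fell in wild-type adults, with a median of 0.24, and 1 rose and 1 fell in mutant adults, with a median of -0.08. Beside acs-7, those that rose were acs-16 (0.98), acs-17 (0.87), acs-12 (0.69), acs-22 (0.56), a homologue of mammalian fatty acid transport proteins, acs-10 (0.49) and acs-21 (0.47), with adjusted p from 0.00145 to 0.0345. The acs-10 call was lost with each array centred on its median (adjusted p = 0.0708). It was also lost after loess normalization (0.107) and with the adult arrays alone (0.0805). After loess normalization acs-21 was not called either (0.33, adjusted p = 0.081). The rise of acs-17 was from 7.47, 7.90 and 7.78 to 8.65, 8.70 and 8.42, and that of acs-16 from 3.12, 3.44 and 3.97 to 4.24, 4.44 and 4.79. Neither gene's temperatures overlapped. Cool wild-type values of acs-16, and of acs-10 (3.77, 3.23 and 3.65), lay around the adult array medians (3.55 to 3.70). The size of their rises is uncertain to that extent. Beside the genes that rose, acs-14 differed by 0.32 (adjusted p = 0.101, or 0.045 with preparation as a block), and with each array centred on its median acs-5 was lower (-0.39, adjusted p = 0.0208). In mutant adults acs-16 rose by 0.69 (adjusted p = 0.0252) and acs-3 fell by 0.54 (adjusted p = 0.0131). The difference between the genotypes in the response to temperature was itself tested and called 0 members, as given for the mutant. The mitochondrial synthetase gene acs-2, known for its response to fasting, differed by 0.13 in wild-type adults (95% interval -0.55 to 0.81), with warm arrays at 5.84, 4.91 and 6.64.

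Unassigned hydratase-family genes fell where they were called. The largest of these falls was that of ech-7, with 7.85, 7.73 and 7.86 at 15 °C and 7.2, 6.69 and 7.19 at 25 °C in wild-type adults and with 7.37, 7.40 and 7.28 at 15 °C and 6.55, 6.07 and 6.37 at 25 °C in the mutant. The temperatures stood apart in both genotypes, by -0.79 (SE 0.21, adjusted p = 0.00623) and -1.02 (adjusted p = 0.000977). With ech-7 fell ech-5, by 0.76 and 0.62, and ech-2, by 0.47 in both genotypes. After loess normalization the falls of ech-2 were not called (-0.30, adjusted p = 0.189, in the wild type and -0.36, adjusted p = 0.124, in the mutant).

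Set against each other, the median mitochondrial member lay 0.45 log2 units below the median peroxisomal member in its response to temperature in wild-type adults and 0.35 below it in mutant adults. This gap (-0.45 and -0.35) carries no test. The SD of 0.155 between arrays of a group belongs to another measure, the gap taken per array, and is no yardstick for it. Per array, the gap was taken after each gene was centred on its mean over the arrays of the stage, so only differences between arrays can be read from it. It ran from 0.02 to 0.26 on the 6 cool adult arrays. At 25 °C preparations 2 and 3 gave -0.31 and -0.29 in the wild type and -0.22 and -0.26 in the mutant, but preparation 1 gave 0.04 and 0.01. In larvae the gap between temperatures was -0.14 in the wild type and -0.26 in the mutant. At 25 °C larval preparation 3 gave -0.48 and -0.30, and without it the gap was 0.02 in the wild type and -0.17 in the mutant. Both compartments held genes that rose and genes that fell in adults.

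**Figure D3:**
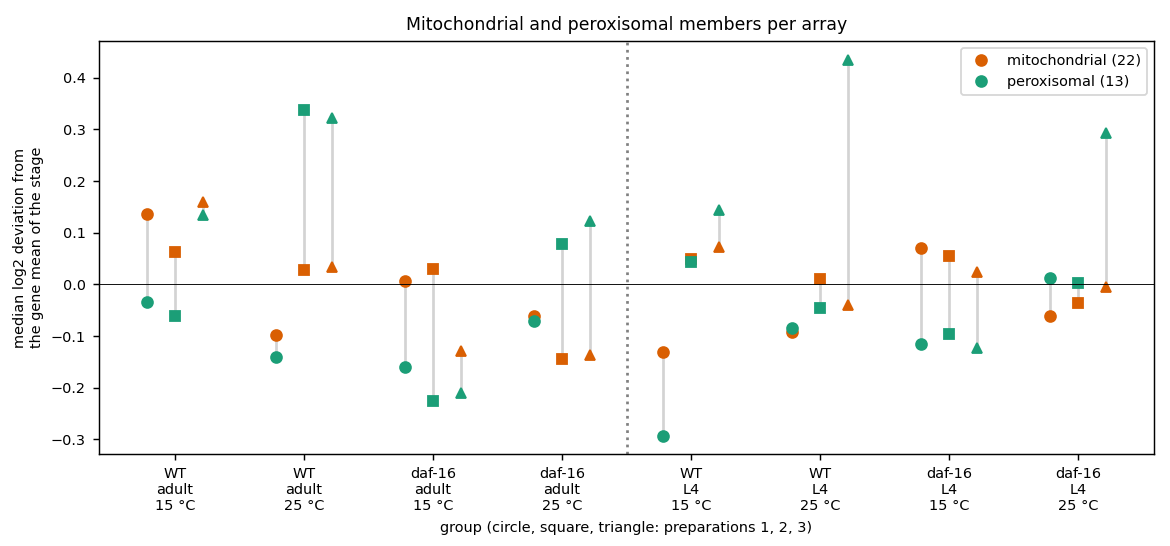
For each array, the median over the 22 mitochondrial and the 13 peroxisomal genes of the log2 deviation from each gene's mean in that stage; grey lines join the 2 medians of an array and marker shapes give the preparation. Relative to the 15 °C arrays, the adult peroxisomal median is raised against the mitochondrial one most in preparations 2 and 3 at 25 °C and least in preparation 1; 0 is set by the centring.

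Of the 30 wild-type adult calls, 17 held whichever of the 6 arrays was left out, 8 upward and 9 downward. They are acdh-1, acdh-2, acdh-9, acdh-12, acdh-13, acox-1.3, acox-1.5, acox-3, acs-7, acs-16, acs-17, cpt-2, cpt-3, ech-1.1, ech-5, ech-9 and hacd-1. The upward count fell to 11 without preparation 2 at 25 °C, which took the adjusted p of acdh-8 to 0.277, ech-6 to 0.204, acs-10 to 0.134, ech-2 to 0.0973, acs-21 to 0.0833, cpt-6 to 0.0685, cpt-4 to 0.0628, ech-7 to 0.0509 and acs-22 to 0.0501. Calls were also lost without preparation 1 at 25 °C (acdh-7 0.0903, cpt-6 0.088, ech-2 0.126) and without preparation 3 (acox-1.4 0.18, acs-10 0.0631, acs-12 0.0592). At 15 °C, leaving out preparation 1 lost acs-12 (0.0806), cpt-4 (0.0588) and ech-6 (0.144). Leaving out preparation 2 lost acdh-8 (0.17), acox-1.4 (0.179), acs-10 (0.191), cpt-6 (0.0577), ech-2 (0.0941) and ech-6 (0.0535). Leaving out preparation 3 lost acdh-7 (0.0907), acs-21 (0.102), cpt-5 (0.0593), cpt-6 (0.0585) and ech-2 (0.105).

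In mutant adults 12 of the 19 calls held in every such run, 4 upward and 8 downward. At 15 °C the adjusted p of acox-1.4 went to 0.0649, 0.0654 and 0.0526 without preparations 1, 2 and 3, and that of ech-2 to 0.141, 0.0911 and 0.0571. Without preparation 1, acs-16 (0.145), cpt-4 (0.0676) and ech-6 (0.0736) were lost as well, and without preparation 3, acs-16 (0.0691) and cpt-5 (0.065). At 25 °C the losses were acox-1.4 (0.0818), acs-16 (0.0858) and acs-3 (0.0652) without preparation 1 and acox-1.4 (0.0727), cpt-4 (0.0707), ech-2 (0.128) and ech-6 (0.0955) without preparation 2. Without preparation 3 they were acs-16 (0.0548), acs-3 (0.0534), cpt-5 (0.0653) and ech-2 (0.119).

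Markers of other tissues moved with adult temperature. In wild-type adults all 4 body wall muscle markers and 4 of 8 early embryo markers rose. The log2 of the summed muscle level lay between 10.29 and 10.32 at 15 °C and between 11.06 and 11.17 at 25 °C, and that of the embryo markers between 7.60 and 8.32 and between 8.81 and 9.43. In mutant adults 1 of 4 muscle markers rose (sums of 10.26 to 10.71 against 10.52 to 10.96), and 3 embryo markers rose and 1 fell (8.83 to 9.0 against 9.40 to 9.69). Intestinal markers gave 2 rises and 2 falls among 10, with sums of 12.07 to 12.27 at 15 °C and 11.97 to 12.23 at 25 °C, and in the mutant 3 rises and 1 fall, with sums of 12.22 to 12.26 and 12.18 to 12.28. Germ line and oocyte markers gave 1 fall of 10 in each genotype, with sums of 14.59 to 14.65 against 14.45 to 14.54 in the wild type and of 14.43 to 14.52 against 14.38 to 14.46 in the mutant. There was no call among 5 sperm markers in either genotype, and hypodermal markers gave 1 rise and 1 fall of 4 in the wild type and 1 rise in the mutant. The sperm, early embryo and hypodermal lists held markers below the adult array medians (3.55 to 3.70) in every adult group. Their lowest means in an adult group were 1.71, 2.74 and 2.15. For markers this dim, the absence of a call says little about the tissue. The part of the marker lists in the adult results was not tested.

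In larvae, temperature changed few members. In the wild type 0 rose and 5 fell, against 2.25% and 2.03% of all genes (4.28% in all). An unadjusted p under 0.05 was reached by 14 members, 4 higher and 10 lower (23% of members against 17% of all genes). In the mutant 1 rose and 3 fell, against 2.72% and 1.88% (4.6% in all). There an unadjusted p under 0.05 was reached by 17 members, 10 higher and 7 lower (27.9% against 16.8% of all genes). Called or not, 30 members lay above 0 and 31 below in the wild type, and 33 and 28 in the mutant. The genes acdh-2 and ech-7 fell in both genotypes and are the 2 members called in all 4 temperature comparisons, each time downward. How many of all genes were called in all 4 was not counted. Larval acdh-2 gave 8.14, 7.90 and 7.86 at 15 °C and 6.63, 6.28 and 6.63 at 25 °C in the wild type and 8.46, 7.85 and 8.15 against 6.14, 6.38 and 6.0 in the mutant. No warm array reached a cool one, and the differences were -1.46 (SE 0.35, adjusted p = 0.0166) and -1.98 (adjusted p = 0.00115). Larval ech-7 fell by 0.98 in both genotypes (adjusted p = 0.00767 and 0.00726), with 8.25 to 9.01 at 15 °C and 7.18 to 8.05 at 25 °C.

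The acetyl-CoA synthetase gene acs-19 fell in larvae from 8.78, 8.84 and 8.91 to 8.48, 8.40 and 8.34 in the wild type (-0.44, SE 0.09, adjusted p = 0.00478). In mutant larvae it fell by 0.35 (adjusted p = 0.0247). Wild-type larvae also showed falls of acox-1.5 by 0.48 (adjusted p = 0.0435) and of ech-9 by 1.09 (SE 0.24, adjusted p = 0.00916). Larval ech-9 gave 3.28, 3.64 and 4.50 at 15 °C and 2.88, 2.93 and 2.34 at 25 °C, and it is the 1 member called in opposite directions in wild-type adults and larvae. All its warm wild-type larval values lay below the larval array medians (2.96 to 3.08), where the size of a fall is uncertain. Preparation 3 was the highest at 15 °C and the lowest at 25 °C, and the call was lost without either (adjusted p = 0.0592 without the cool and 0.0661 without the warm array). The 1 larval rise was that of ech-6 in the mutant, from 9.16, 9.19 and 9.24 to 9.51, 9.53 and 9.92 (0.45, adjusted p = 0.0313).

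Of the 5 wild-type larval calls, acs-19 held whichever array was left out and was lost with the larval arrays fitted alone (adjusted p = 0.053). The call of acdh-2 was lost without preparation 1 at 15 °C (0.063) and preparation 2 at 25 °C (0.084), and that of ech-7 without the latter (0.071). The call of acox-1.5 was lost without preparations 2 and 3 at 15 °C (0.105, 0.155) and without each of the 3 at 25 °C (0.139, 0.102, 0.064). Of the 4 mutant larval calls acdh-2 held throughout, and ech-7 was lost without preparation 1 at 15 °C (0.0537). The call of ech-6 was lost without preparations 1, 2 and 3 at 15 °C (0.108, 0.083, 0.0642) and preparation 3 at 25 °C (0.216). The call of acs-19 in mutant larvae was lost without preparations 1 and 2 at 15 °C (0.122, 0.0559) and preparations 1 and 3 at 25 °C (0.0736, 0.0752). Without preparation 3 at 25 °C in both genotypes, acox-1.5 (0.0642) and ech-9 (0.0711) were lost in the wild type and acs-19 (0.0669) and ech-6 (0.18) in the mutant. The same removal added falls of ech-2 (-0.53, adjusted p = 0.0219) and acs-14 (-0.49, adjusted p = 0.0496) in the wild type and a rise of acs-18 (0.71, adjusted p = 0.0443) in the mutant. It also lost the larval genotype call of acox-1.4 at 25 °C (0.258). Larval germ line and oocyte markers fell with temperature, 1 of 10 in the wild type and 4 of 10 in the mutant, with log2 sums of 13.13 to 13.31 against 12.58 to 13.09 and of 12.97 to 13.24 against 12.23 to 12.83. Larval intestinal markers gave 1 rise and 1 fall in the wild type (sums of 12.05 to 12.37 against 12.12 to 12.29) and 2 rises in the mutant (12.17 to 12.33 against 12.34 to 12.43), and the part of either list in the larval results was not tested.

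Whether adults and larvae responded differently to temperature was tested as the adult difference minus the larval difference. In the wild type 7 members were called higher and 6 lower, against 8.66% and 5.1% of all genes, and in the mutant 4 higher and 6 lower, against 6.82% and 3.21%. The difference was largest for ech-9, at 3.32 in the wild type (SE 0.34, adjusted p = 1.2e-06) and 2.28 in the mutant (adjusted p = 0.000102). The transferase gene cpt-4 followed in both genotypes (1.89 and 1.90, adjusted p = 0.0119 and 0.0144), with cpt-3 in the wild type (2.12, adjusted p = 0.000867). Both genes rose in wild-type adults, while in wild-type larvae their differences were below 0 and were not called. The larval mean of cpt-3, 2.85, lay below the larval array medians, as did the warm wild-type larval values of ech-9. Called lower in both genotypes were acdh-1, cpt-2, ech-6 and acox-1.3, the last by -0.89 in the wild type (adjusted p = 0.0261) and -1.76 in the mutant (adjusted p = 0.00011). The 2 shunt partners behaved likewise, with hphd-1 at -1.29 and -1.18 and hach-1 at -0.77 and -0.61 in wild type and mutant, all called. Larvae were matched by stage and adults by days, so stage and time at the temperature cannot be told apart. Of the 13 wild-type calls 8 held whichever of the 12 arrays was left out, and of the 10 mutant calls 5 held. The highest adjusted p of the named genes whose call did not hold was 0.0557 for acdh-1, 0.0829 for acox-1.3 and 0.0772 for ech-6 in the wild type, all without wild-type adult preparation 2 at 25 °C. In the mutant it was 0.111 for acdh-1, without larval preparation 2 at 15 °C, and 0.1 for cpt-2, without larval preparation 3 at 15 °C.

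**Figure D4:**
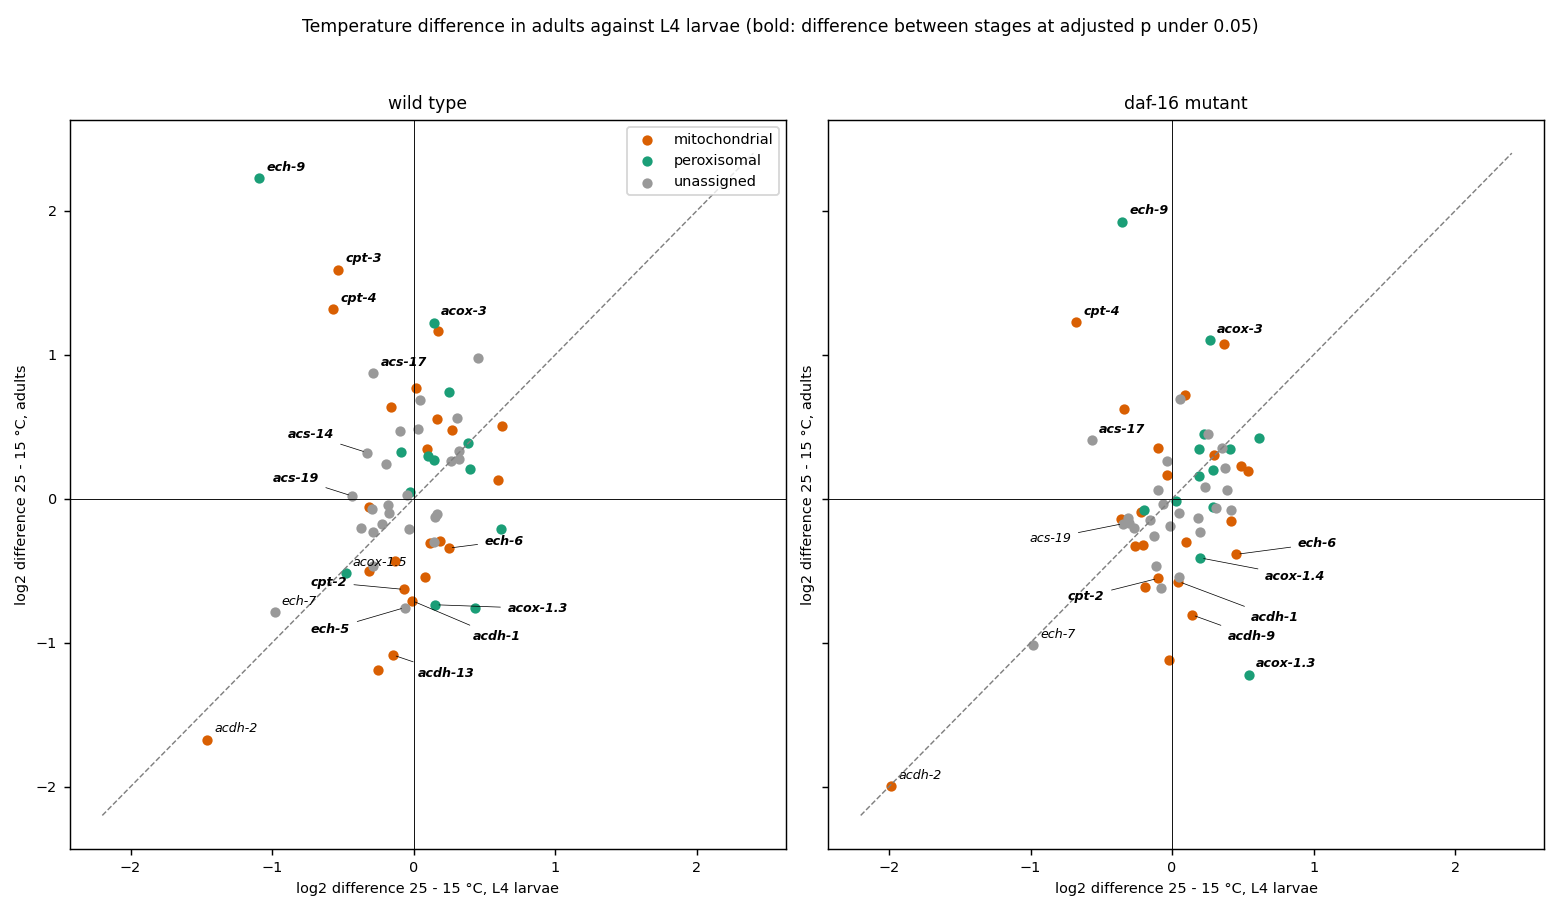
Log2 difference between 25 °C and 15 °C in larvae (horizontal) against adults (vertical) for the 61 genes, wild type left and mutant right, coloured by compartment, with the dashed line of equal differences. Named genes were called in larvae or, in bold, in the difference between stages; acdh-2 and ech-7 lie near the line and ech-9 far above it.

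The daf-16 mutation was compared with the wild type at each temperature. In adults at 15 °C limma called 0 members higher and 0 lower, against 0.959% and 0.511% of all genes (1.47% in all). An unadjusted p under 0.05 was reached by 12 members, 2 higher and 10 lower (19.7% of members against 12.5% of all genes). The lowest adjusted p was 0.0858, for acox-1.5. In adults at 25 °C 0 were higher and 5 lower, against 1.36% and 1.64% of all genes (3% in all). An unadjusted p under 0.05 was reached by 19 members, 18 of them lower (31.1% of members against 14% of all genes). The share of all genes by direction at that threshold was not counted. The median member differed by -0.18 and the median gene by 0.02. The 5 genes were acox-1.4, acs-7, cpt-3, acs-22 and acs-19. In this fit no other member was called in any of the 4 genotype comparisons. With preparation as a block, ech-7 (-0.69, adjusted p = 0.00611) and acs-14 (-0.45, adjusted p = 0.0394) were also lower in mutant adults at 25 °C, and with the adult arrays alone ech-7 (0.0306) and acdh-9 (-0.45, adjusted p = 0.0363). Leaving out 1 array added acs-6 at 25 °C (-0.62, adjusted p = 0.00899, without wild-type preparation 1), acdh-2 at 25 °C (1.28, adjusted p = 0.00815, without mutant preparation 1) and acox-1.5 at 15 °C (-0.63, adjusted p = 0.0188, without wild-type preparation 1).

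At 25 °C acox-1.4 was lower by 1.14 in mutant adults (-1.14, SE 0.13, adjusted p = 1.13e-05) and acs-7 by 1.13 (-1.13, SE 0.16, adjusted p = 0.00021), from the array values given above, which did not overlap. Both calls held without any 1 array. Values of cpt-3 were 4.13, 4.45 and 3.85 in the mutant against 4.96, 6.14 and 4.54 in the wild type, also without overlap (-1.07, SE 0.29, adjusted p = 0.0405). Its call was lost without wild-type preparation 2 (0.274) and without mutant preparations 1, 2 and 3 (0.111, 0.0504, 0.193). The difference of acs-22 was -0.65 (SE 0.14, adjusted p = 0.0128), from 7.77, 8.29 and 7.82 in the wild type and 7.31, 7.53 and 7.11 in the mutant, and it was lost without wild-type preparation 2 (0.113) or mutant preparation 3 (0.0989). The difference of acs-19 was -0.35 (SE 0.09, adjusted p = 0.029), and its call was lost in each of the 6 runs, at 0.0731, 0.0806 and 0.0706 without wild-type and 0.0793, 0.0622 and 0.128 without mutant preparations 1 to 3. Intestinal markers at 25 °C gave 1 rise and 1 fall between the genotypes, with sums of 11.97 to 12.23 in the wild type and 12.18 to 12.28 in the mutant, and the other marker lists gave no call. In adults at 15 °C 4 of 8 embryo markers were called higher in the mutant, and their part in the results was not tested.

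In larvae the genotypes differed at 1 member. At 15 °C limma called 0 higher and 0 lower, against 0.0197% and 0.0511% of all genes. An unadjusted p under 0.05 was reached by 4 members, 6.56% of them against 7.86% of all genes. At 25 °C acox-1.4 was lower (-0.67, SE 0.13, adjusted p = 0.0348) among 0 higher and 1 lower, against 0.0118% and 0.106% of all genes. Larval acox-1.4 gave 7.11, 7.18 and 7.38 in the wild type and 6.45, 6.54 and 6.66 in the mutant at 25 °C, and at 15 °C 6.66, 6.89 and 6.96 against 6.24, 6.41 and 6.41. Mutant arrays lay below wild-type arrays at both temperatures, as in adults. The call at 25 °C was lost whichever array was left out (0.0609, 0.109 and 0.175 without wild-type and 0.203, 0.144 and 0.0556 without mutant preparations 1 to 3).

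The difference between the genotypes in the response to temperature was called for 0 members in adults, against 0.0315% and 0.236% of all genes. An unadjusted p under 0.05 was reached by 9 members, 3 higher and 6 lower (14.8% of members against 6.75% of all genes). The lowest adjusted p was 0.0813, for acox-1.4 (-0.80, SE 0.19), and it was 0.0314 with the preparation number as a block, 0.0435 after loess normalization and 0.0408 without wild-type preparation 1 at 25 °C. For acs-7 the value was -0.80 (SE 0.23, adjusted p = 0.233) and for cpt-3 -0.97 (SE 0.40, adjusted p = 0.613). In larvae 0 members were called and 0% of all genes, with a lowest adjusted p of 0.999. An unadjusted p under 0.05 was reached by 4 members, 6.56% of them against 4.13% of all genes. A change called in wild-type and not in mutant worms is therefore not shown to differ between them.

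Of the 61 genes, 28 were called in none of the 12 comparisons, 7 mitochondrial, 7 peroxisomal and 14 unassigned. They are 13 acs genes, 4 acdh, 4 ech and 3 acox genes with cpt-1, daf-22, dhs-28 and maoc-1. The share of all genes called in none of the 12 comparisons was not counted, so the 28 cannot be set against it. Under another setting or without 1 array, 16 of the 28 gained a call in at least 1 comparison and 12 gained none. In wild-type adults 10 gained one, acox-1.2 in 7 settings and cpt-1 and acdh-4 in 5 each. Their differences in the 8 comparisons of 2 groups ran from -0.76 to 0.63. The median SE of a gene in such a comparison was 0.158, so that changes of this size could often be missed with 3 arrays in a group. In simulated data, 100 of 25434 genes were given a change of 0.5 log2 units and 100 a change of 1. In comparisons of 2 groups, 17% to 28% of the former and 86% to 87% of the latter were called. In the wild-type difference between stages the shares were 7% and 55%.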

How the data were processed

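RNA of 24 preparations, 8 groups of 3, was read on Affymetrix C. elegans Gene 1.1 ST arrays. The deposited table holds log2 values, which the authors obtained by RMA according to the submitters' processing notes, and no version of it was given in the sources used here. The 12 adult and 12 larval arrays have different distributions, and 3 probe sets are blank in adults. Of 29317 probe sets, 25484 had 1 gene symbol, 700 several and 3133 none in the platform table, and 47 were dropped for a brighter one of their gene, which left 25434 genes. All 61 members matched a RefSeq symbol, from which the neighbouring genes were taken.

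Group means were fitted over all arrays with limma 3.58.1 in R 4.3.3 (lmFit, contrasts.fit, eBayes; 16 residual and 6.06 prior degrees of freedom), with no filter on dim genes. P-values are two-sided, with Benjamini-Hochberg adjustment within each of 12 comparisons across all 25434 genes, and called means an adjusted p under 0.05. Intervals are at 95%. The labels do not tell if a group's 3 preparations came from different cultures. P-values then measure the spread among preparations alone, which may be technical, and the number of arrays limits the precision. The calculations were tested on simulated data.

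The members, the compartments and the lists of partner and marker genes were chosen with earlier results of these data known. Partner lists cover mitochondrial thiolases and electron transfer, propionate breakdown, peroxisome assembly and transport, acyl-CoA binding and regulators. Marker lists cover the intestine, germ line and oocyte, sperm, early embryo, body wall muscle and hypodermis. The genes named are up to 12 members called in each direction of a comparison of 2 groups, every member called in a difference of differences, 12 fixed members, and up to 4 called partners a comparison with daf-16, nhr-49, kat-1 and ctl-2.

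Arrays with the same preparation number deviated together across genes (every r above 0.1) in 2 comparisons, larval genotype at 25 °C (0.15 to 0.45) and wild-type adult temperature (0.26 to 0.34). This did not hold for the 6 other pairs of groups. The alternatives were centring on array medians, loess normalization, the arrays of 1 stage only, preparation as a block, no dim genes, averaged probe sets, no preparation 3 of larvae at 25 °C, and leaving out each array.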

Additional observations from a re-analysis of the deposited data

Results flagged for a closer look

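A total of 23 results were singled out because the response to temperature differed between adults and larvae when the difference itself was tested in limma (adult difference minus larval difference, adjusted p under 0.05). In the wild type these are ech-9 (3.32), cpt-3 (2.12), cpt-4 (1.89), acs-17 (1.16), acox-3 (1.08), acs-14 (0.65) and acs-19 (0.46) upward, and acdh-13 (-0.94), acox-1.3 (-0.89), acdh-1 (-0.69), ech-5 (-0.69), ech-6 (-0.59) and cpt-2 (-0.56) downward. In the mutant they are ech-9 (2.28), cpt-4 (1.90), acs-17 (0.98) and acox-3 (0.84) upward, and acox-1.3 (-1.76), acdh-9 (-0.95), ech-6 (-0.84), acdh-1 (-0.62), acox-1.4 (-0.61) and cpt-2 (-0.45) downward. Adjusted p ran from 1.2e-06 to 0.0362 in the wild type and from 0.000102 to 0.0406 in the mutant.

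Both genotypes share ech-9, cpt-4, acs-17, acox-3, acox-1.3, acdh-1, ech-6 and cpt-2. The call of acs-14 was the least firm in the wild type: its temperature difference was called in neither stage, and its adjusted p reached 0.113 without larval preparation 1 at 25 °C. That of ech-5 reached 0.0889 without larval preparation 3 at 25 °C. In the mutant acox-3 reached 0.0945 and acs-17 0.0913 without adult preparation 2 at 25 °C, and acox-1.4 reached 0.101 without larval preparation 1 at 15 °C. The mutant calls of acdh-1, acox-1.4 and cpt-2 each held in 2 of the 12 runs without 1 array. What lies behind these differences was not tested.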

How the results depend on the processing

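Of 87 calls of a member in a comparison, 44 held under every alternative and without any 1 array, and none turned direction. Of 532 values under the other alternatives 496 kept their side of the threshold and 36 lost it; without 1 array 503 of 660 kept it and 157 lost it. Counts that moved by over 1.5 times were few. With the larval arrays alone, wild-type larvae had 3 members lower at 25 °C, mutant larvae 0 higher, and the genotypes 0 lower at 25 °C. Mutant larvae had 2 members higher after loess and 3 without dim genes. Without preparation 3 of larvae at 25 °C, the genotypes differed at 0 members in larvae at 25 °C, the stages differed at 3 lower in the mutant, and the compartment gap of wild-type larvae was 0.0208. The genotype difference in the adult response to temperature had 1 member lower after loess and 1 with the block.

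Leaving out 1 array gave these ranges of counts. Higher: wild-type adults 11 to 18, wild-type larvae 0 to 1, mutant larvae 0 to 1, mutant against wild-type adults at 25 °C 0 to 1, stages in the mutant 2 to 4. Lower: wild-type larvae 2 to 4, mutant larvae 1 to 3, mutant against wild-type adults 0 to 1 at 15 °C and 2 to 5 at 25 °C, mutant against wild-type larvae at 25 °C 0 to 0, adult response between genotypes 0 to 1, stages 3 to 7 in the wild type and 3 to 5 in the mutant. The compartment gap ran from -0.51 to -0.31 in mutant adults and from -0.24 to 0.0208 in wild-type larvae.

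With the replicate block, wild-type adults had 19 members higher and 14 lower and mutant adults 8 and 13, and adults at 25 °C had 7 lower in the mutant. It ended no call of a member. It added acox-1.2, acs-14 and cpt-1 in wild-type adults, dhs-28 (adjusted p = 0.0157) and acs-12 (0.0478) in mutant adults, ech-7 and acs-14 between genotypes in adults at 25 °C, and acdh-9, acox-1.2, ech-1.1, ech-8 and hacd-1 between stages in the wild type. Centring on array medians gave 15 members higher and 18 lower in wild-type adults, where 3401 of all genes were higher and 6059 lower, and 5 and 9 between stages in the wild type; loess gave 8 and 10 in mutant adults, 8 and 7 between stages in the wild type and 4 and 4 in the mutant. These scalings moved the median gene by at most -0.0915 and 0.0875.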

Other observations

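Genes that work beside the members gave mixed calls in adults. Of 12 mitochondrial thiolase, electron transfer and auxiliary genes, 1 rose and 4 fell with temperature in wild-type adults. The dienoyl-CoA reductase genes decr-1.2 and decr-1.1 went opposite ways (0.86 and -0.55), acaa-2 fell by 0.32 and the thiolase gene kat-1 by 0.30. In mutant adults the list gave 0 rises and 1 fall, that of decr-1.1 by 0.41. At 25 °C decr-1.2 (-0.70) and etfa-1 (-0.41), an electron transfer flavoprotein subunit, were lower in mutant than in wild-type adults.

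Of 18 genes of peroxisome assembly and transport, 4 rose and 3 fell in wild-type adults and 3 rose and 3 fell in mutant adults. Among them were the transporter gene pmp-5 (-1.23 and -0.97), the peroxisomal catalase gene ctl-2 (0.73, and 0.28 without a call in the mutant) and nlt-1 (0.68 and 0.44). The peroxisomal protease gene lonp-2 rose in both genotypes (0.49 and 0.69), and prx-5, an import receptor gene, rose in the mutant (0.49). The assembly genes prx-10 and prx-19 lay lower on every warm than on every cool adult array of their genotype. In the wild type prx-10 gave 7.90, 7.79 and 7.80 at 15 °C and 7.44, 7.43 and 7.30 at 25 °C. Wild-type prx-19 gave 9.34, 9.07 and 8.82 at 15 °C and 8.59, 8.52 and 8.45 at 25 °C. Both ctl-2 (-0.73) and nlt-1 (-0.63) were lower in mutant adults at 25 °C. Among 7 acyl-CoA binding genes acbp-7 rose by 0.55 in wild-type adults and 0 were called in mutant adults. Of 9 regulators 3 rose and 2 fell in wild-type adults, hlh-30 by 0.88 and nhr-13 by -0.40 among them, and 1 rose and 1 fell in mutant adults. The receptor gene nhr-49, known as a regulator of fat oxidation genes, differed by 0.16 in wild-type adults and was called in no comparison. In larvae few partners were called: acbp-5 fell by 0.40 in the wild type, and nhr-68 (0.83), nlt-1 (0.59), prx-5 (0.54) and mlcd-1 (0.35) rose in the mutant.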
